A study of Mus musculus with 2 samples.

Results

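The cells described here carry transcripts of blood vessel lining in a library prepared from sorted CD4+ T cells. A cell was taken when it held at least 500 genes, under 10% mitochondrial UMIs (unique molecular identifiers, 1 per captured transcript) and 1 clear hashtag, and when at least 2 of Gpihbp1, Cldn5, Cdh5, Pecam1 and Fabp4 were detected with Gpihbp1, Cldn5 or Cdh5 among them. These 5 genes are called the rule genes, and since they chose the cells, their levels describe the choice and are no result. The rule took 497 of 14382 cells, 3.46% (exact Clopper-Pearson 95% interval 3.16 to 3.77).

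The study sorted CD4+ T cells from the spleen and visceral adipose tissue of C57BL/6 mice that carry Foxp3.Cre-YFP, the Cre recombinase and yellow fluorescent protein that mark regulatory T cells (Tregs). The title of the samples names bmal1 KO and bmal1 WT, which stand for mice without and with Bmal1 (gene Arntl) in the cells where Foxp3 drives Cre, the Tregs. BMAL1 is the activator at the head of the circadian clock. Cells were taken at ZT12 and ZT0, zeitgeber times of the light cycle. Cells of each tissue, genotype and time were stained with hashtag antibodies and pooled into 1 expression library with 1 hashtag library, and the age and number of mice are not given in the sources used here. The hashtags are named by number alone, so no cell could be placed in a tissue, a genotype or a time, and no comparison of these was made. The 6 hashtags in use are different pools of cells of unknown origin and are not replicates. With 1 expression library there is no test, and intervals cover counting error only.

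Capillary endothelium of fat and muscle takes up fatty acids from lipoproteins in the blood. GPIHBP1, a membrane-anchored protein of capillary endothelial cells, carries lipoprotein lipase (LPL) to the vessel lumen, where LPL releases fatty acids from triglyceride. CD36 takes up the released fatty acids, and the binding proteins FABP4 and FABP5 carry them inside the cell. CLDN5 seals tight junctions and CDH5 (VE-cadherin) holds adherens junctions between endothelial cells. PECAM1 is found on endothelium and on many leukocytes, and FABP4 on endothelium, adipocytes and macrophages, so neither is particular to vessels.

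Promoter sequence of 3 genes described below is shown because they stand for the 3 layers of the description: Cldn5 for the junction genes of the rule, Kdr for the endothelial genes outside it, and Cd36 for fatty acid uptake. Each run covers 250 bases before to 50 after a listed start of the gene in RefSeq (GRCm38.p6), 5′ to 3′ on the gene's strand, and capitals mark GGAA, the core bound by ETS factors, on either strand. The Kdr window lies within the span of the gene (chr5:75932827-75979072), so its start is not the outermost one.
Cldn5 (chr16:18776597-18776896, plus strand): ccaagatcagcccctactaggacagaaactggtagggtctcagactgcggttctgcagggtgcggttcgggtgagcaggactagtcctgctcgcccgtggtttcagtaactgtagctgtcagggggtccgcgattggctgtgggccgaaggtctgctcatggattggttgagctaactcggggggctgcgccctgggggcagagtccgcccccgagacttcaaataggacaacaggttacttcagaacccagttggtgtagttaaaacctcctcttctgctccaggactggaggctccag
Kdr (chr5:75978406-75978705, minus strand): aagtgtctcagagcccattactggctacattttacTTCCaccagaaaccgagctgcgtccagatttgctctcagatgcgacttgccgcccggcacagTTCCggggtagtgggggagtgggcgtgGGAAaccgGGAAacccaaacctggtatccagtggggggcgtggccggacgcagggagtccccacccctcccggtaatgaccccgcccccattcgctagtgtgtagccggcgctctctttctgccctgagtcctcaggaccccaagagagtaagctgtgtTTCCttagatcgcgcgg
Cd36 (chr5:17835847-17836146, minus strand): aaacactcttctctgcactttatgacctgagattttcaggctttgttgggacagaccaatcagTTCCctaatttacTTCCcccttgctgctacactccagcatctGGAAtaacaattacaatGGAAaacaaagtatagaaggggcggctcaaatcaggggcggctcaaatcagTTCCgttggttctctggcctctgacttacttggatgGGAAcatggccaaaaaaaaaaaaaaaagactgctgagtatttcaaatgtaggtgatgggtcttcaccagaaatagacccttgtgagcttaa
GGAA was found 0 times in the Cldn5 window, 5 times in the Kdr window and 6 times in the Cd36 window. Of all 32851 promoters in the table, 96.0% hold it at least once with a median of 3 matches, and all 21 listed promoters of the 17 endothelial identity genes that the table holds do so, with a median of 4. A match is a description of the letters, not a binding site.

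The library held 22960 barcodes and 55487 genes, and 14382 cells with a median of 3148 UMIs and 1260 genes were kept. The cells of the rule had a median of 3864 UMIs and the other 13885 cells 3128. The rule took 81, 67, 62, 41, 132 and 114 cells of hashtags 1 to 6, which is between 2.93% of hashtag 1 and 4.38% of hashtag 2. The hashtag filter takes out pairs of cells with different hashtags unless 1 hashtag holds at least 80% of the counts, and it leaves pairs with the same hashtag in. No doublet caller on expression was run.

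The name endothelial held for a minority of the 497 cells. Of them, 306 held 2 rule genes, 80 held 3, 35 held 4 and 76 held all 5. A list of 28 endothelial identity genes outside the rule was used as a check; it holds receptors such as Kdr, Flt1, Tie1 and Tek, the transcription factors Sox17, Sox18 and Erg, and surface proteins such as Emcn and Robo4. The median cell had 19 of these 28 genes with 5 rule genes, 12 with 4, 2 with 3 and 1 with 2 rule genes. Of the 306 cells with 2 rule genes, 141 held none of the 28.

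**Figure D1:**
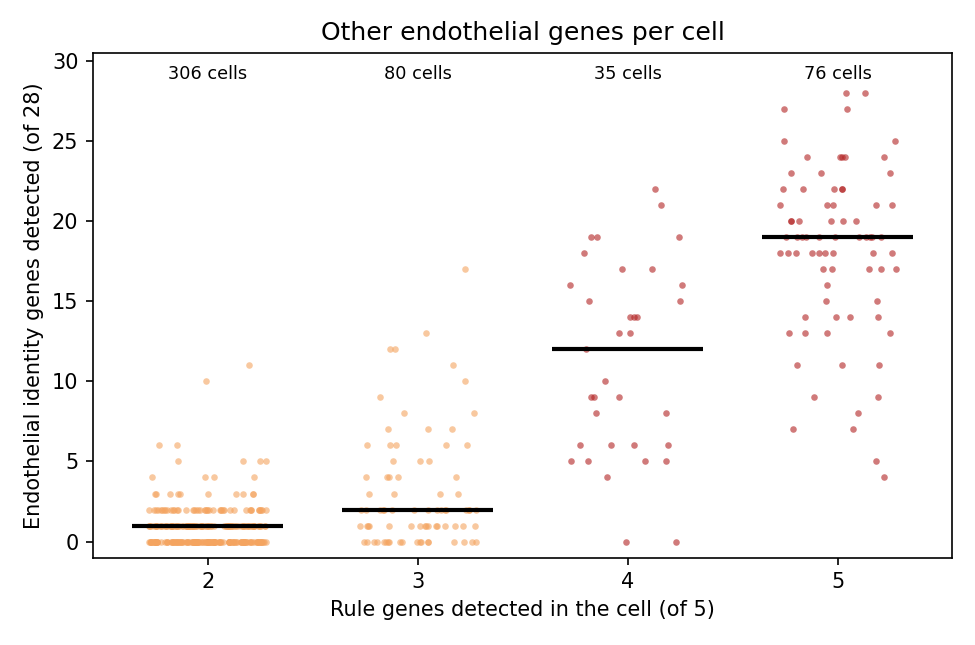
Number of endothelial identity genes (of 28, none of them a rule gene) detected in each cell, by the number of rule genes in it; each point is 1 cell, spread sideways for legibility, and black lines are medians. The medians are 1, 2, 12 and 19 genes in cells with 2, 3, 4 and 5 rule genes, and cells with 2 rule genes crowd at the bottom of the plot.

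The cells also differ in depth, so each was thinned to 1500 UMIs. At that depth, at least 3 identity genes were seen in 97.3% of 74 cells with 5 rule genes and in 71.4% of 35 cells with 4. The share was 15.7% of 70 cells with 3 rule genes, 1.39% of 288 cells with 2 and 0.199% of the 12580 other cells. Just outside the rule, 0 of 255 cells with Gpihbp1, Cldn5 or Cdh5 as their only rule gene had 3 identity genes, which allows a share of up to 1.18% (3 counts), and the share was 0.877% of 684 cells with Pecam1 and Fabp4 alone. The interval for cells with 2 rule genes (0.38 to 3.52) lay above that of all other cells (0.129 to 0.293) and overlapped that of the Pecam1 and Fabp4 cells (0.323 to 1.90).
Among the cells with 2 rule genes the most frequent pair was Gpihbp1 with Fabp4 (113 cells), then Cldn5 with Fabp4 (61 cells) and Cdh5 with Fabp4 (55 cells). Fabp4 had a UMI in 28.7% of the cells outside the rule. Gpihbp1 had one in 0.951% of them, Cldn5 in 0.684% and Cdh5 in 0.439%.

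The label "endothelial-like" is therefore used below for the 111 cells with 4 or 5 rule genes only, a division made after these values were seen, and the 386 cells with 2 or 3 rule genes are called by that number. Endothelial-like cells were 0.772% of the kept cells (0.635 to 0.929). They numbered 21, 28, 14, 11, 23 and 14 in hashtags 1 to 6, between 0.413% of hashtag 6 (0.226 to 0.692) and 1.83% of hashtag 2 (1.22 to 2.64). Their median depth was 5556 UMIs, against 3607.5 in cells with 2 or 3 rule genes and 3128 in the other cells. At least 5 identity genes were detected in 107 of the 111 cells.

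Levels are CPM, the UMIs of a gene per 1000000 UMIs of the summed cells. Ratios are log2 ratios of CPM against the cells outside the rule, with 0.5 counts added to each sum, and a gene was measured at 10 CPM or more in either sum. A gene is called higher or lower when its log2 ratio is at least 1 in size with the same sign in each hashtag that has 20 or more of the cells. The added 0.5 counts weigh more in the smaller sum, so a gene with 0 UMIs in a hashtag can still take a higher sign there. The lymphatic gene Ccl21a, for example, was called higher with 0 UMIs in endothelial-like cells of hashtags 1 and 5. For genes of few UMIs the same sign over hashtags is therefore no support. In endothelial-like cells, 2251 of 9585 measured genes (23.5%) were higher and 587 (6.12%) were lower, judged in hashtags 1, 2 and 5, and the median over all measured genes was 0.28. Over all 497 cells, 995 of 8949 measured genes (11.1%) were higher and 11 (0.123%) were lower in 6 hashtags, with a median of 0.12. Of the 9585 genes, 1977 reached 10 CPM only through the endothelial-like cells, so their ratios are high by selection. Of the 7608 genes at 10 CPM or more in the other cells, 718 were higher and 587 lower.

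**Figure D2:**
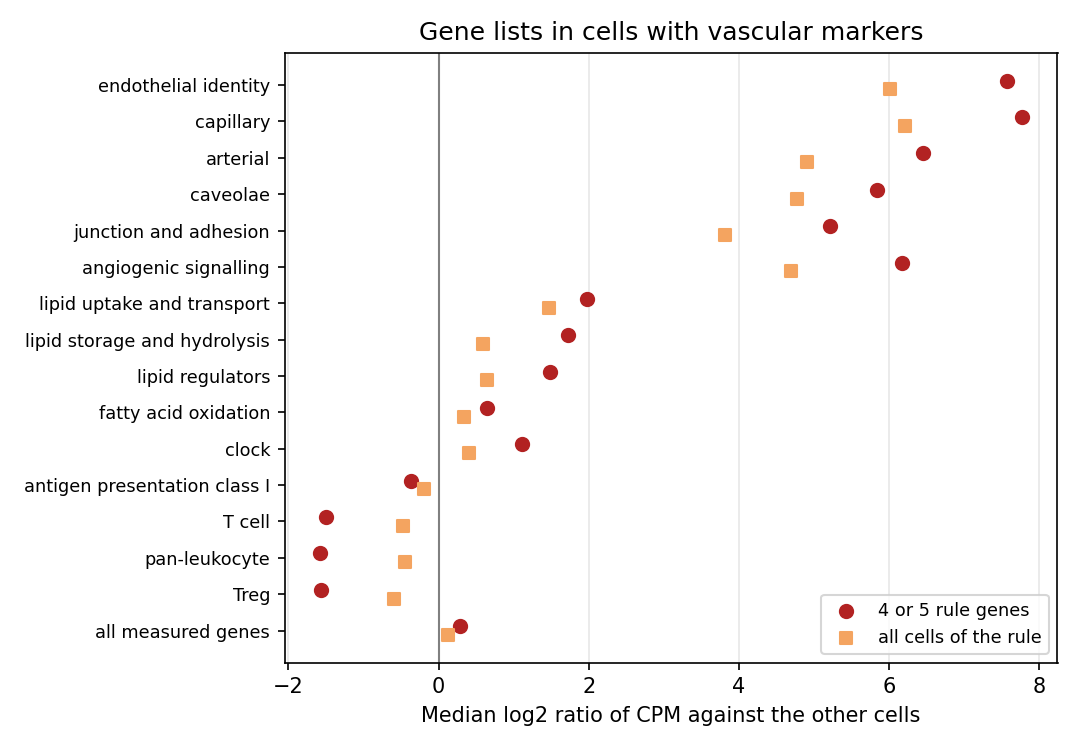
Median log2 ratio of CPM against the cells outside the rule for 15 gene lists and for all measured genes, in endothelial-like cells (red circles) and in all 497 cells of the rule (orange squares). Vascular lists lie furthest to the right, the 4 lipid lists between 0.33 and 1.97, and T cell, Treg and pan-leukocyte lists left of 0.

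All 28 identity genes were measured and all 28 were higher in endothelial-like cells, with a median log2 ratio of 7.57, although 25 of them were measured only through these cells. Kdr, the main receptor of VEGF-A, had 642, 657, 735, 856, 514 and 333 CPM in the endothelial-like cells of hashtags 1 to 6, against 2.31, 4.79, 3.24, 3.98, 1.05 and 2.24 CPM in the other cells of the same hashtags. The 2 sets of values did not overlap, and the log2 ratio was 7.99 (95% interval 7.70 to 8.30). Flt1, a second VEGF receptor, was at 662 CPM in endothelial-like cells and 2.79 CPM in other cells. Tie1, which takes part in angiopoietin signalling, was at 189 and 0.735 CPM in the same order. Ecscr, Robo4 and Emcn, surface proteins of endothelium, had a UMI in 61, 52 and 64 of the 111 cells.
The list summed to 8392 CPM in endothelial-like cells, 486 CPM in cells with 2 or 3 rule genes and 190 CPM in other cells.

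Genes of capillary endothelium were present as a whole. Of 13 capillary genes all 13 were measured and higher (12 of them measured only through these cells), with a median log2 ratio of 7.77. Tcf15, a transcription factor that pairs with MEOX2 in capillary endothelium of heart and muscle in mice, was at 397 CPM in endothelial-like cells and 0.861 CPM in other cells, with 74 of 111 cells positive. Its partner gene Meox2 was at 176 and 0.882 CPM. Car4, a carbonic anhydrase of the capillary surface, was at 291 and 0.966 CPM. Timp4, an inhibitor of metalloproteinases, was at 921 and 3.15 CPM.
Arterial genes were detected as well: 12 of 12 were measured and higher, all 12 measured only through these cells, with a median log2 ratio of 6.45. They were spread unevenly over the 111 cells. Cxcl12 was detected in 96 and Dll4 in 55, but Gja4 in 11, Gja5 in 6 and Bmx in 4. Gja4, Gja5 and Bmx had 54.2%, 76.9% and 86.7% of their UMIs in 3 cells. Cxcl12, a chemokine, was at 934 CPM in endothelial-like cells and 4.18 CPM in other cells. Dll4, a Notch ligand of arteries and capillaries, was at 120.3 and 0.567 CPM. Sema3g, a secreted semaphorin, was detected in 37 of the 111 cells and had 129.9, 139, 56.0, 11.1, 120.5 and 311 CPM in hashtags 1 to 6. Its highest value was in hashtag 6 and its lowest in hashtag 4.
Of 9 venous genes 6 were measured and higher, all through these cells. Among the 6, Vcam1 and Cpe had 83.3% and 71.6% of their UMIs in 3 cells. Vwf, the clotting factor carrier of larger vessels, was detected in only 14 of 111 cells at 49.1 CPM, against 0.840 CPM in other cells. Lrg1 was at 149 CPM, but 85.2% of its UMIs came from 3 cells. The adhesion molecules of activated veins Sele and Selp and the venular receptor Ackr1 had 0, 3 and 2 UMIs in all endothelial-like cells.
The list of sinusoid and scavenger genes, which mark vessels of liver, spleen and similar organs, had 3 of 10 members measured, and 1, Stab1, was higher. Of its UMIs 69.3% came from 3 cells. Stab2, Madcam1 and Gata4 had 0 UMIs in 773345, and 3 counts over these cells would be 3.88 CPM.

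Caveolae, the membrane pits that are dense in capillary endothelium, had 9 of 9 genes measured and higher at a median log2 ratio of 5.84. However, 5 of the 9 were measured only through these cells. The 4 at 10 CPM or more in other cells were all higher, beside 718 of 7608 over all genes at that level. Cav1, the coat protein of caveolae, had 1227, 1324, 798, 1022, 643 and 966 CPM in endothelial-like cells of hashtags 1 to 6, against 15.2, 18.2, 9.00, 12.5, 6.32 and 6.22 CPM in other cells. The 2 sets of values did not overlap. Cavin2, which shapes the pits, was at 1426 and 11.7 CPM in endothelial-like and other cells.
Of 16 junction and adhesion genes 15 were measured and 14 higher (median log2 ratio 5.21), 3 of them among the 4 at 10 CPM or more in other cells. The junction proteins Esam and Jam2 were at 378 and 275 CPM in endothelial-like cells, against 2.52 and 1.53 CPM in other cells.
Of 22 genes of angiogenic signalling 21 were measured, 16 of them only through these cells, and of the 5 at 10 CPM or more in other cells 4 were higher. Of 16 vasoactive and clotting genes 13 were measured, 10 of them only through these cells, and of the other 3 genes 2 were higher. Nos3, the endothelial nitric oxide synthase, was detected in 28 of 111 cells at 64.7 CPM, against 1.13 CPM in other cells. Edn1, the vasoconstrictor endothelin, was detected in 18 cells at 50.4 CPM, against 0.420 CPM. Klf4, which responds to blood flow, was at 463 CPM in endothelial-like cells and 48.5 CPM in other cells.
Of 18 immediate early and heat stress genes, which rise when tissue is digested, 18 were measured and only Jun and Egr1 were higher, at 927 and 579 CPM, against 219 and 128 CPM in other cells. All 18 were at 10 CPM or more in other cells, where 718 of 7608 genes were higher, a similar share.

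Fatty acid uptake was led by Cd36, detected in 109 of the 111 endothelial-like cells. It had 3125, 3192, 3016, 1944, 2217 and 2309.6 CPM in endothelial-like cells of hashtags 1 to 6 and 24.3, 28.4, 23.9, 24.4, 13.5 and 14.9 CPM in other cells. Every hashtag stood apart in the same direction, and the log2 ratio was 7.14 (95% interval 7.03 to 7.25). Cells with 2 or 3 rule genes held 81.2 CPM.
Of 23 genes of lipid uptake and transport 17 were measured and 10 were higher, with a median log2 ratio of 1.97. Among the 10 of these genes at 10 CPM or more in other cells, 4 were higher. Over all genes at that level, 718 of 7608 were higher. Lpl, the lipase that GPIHBP1 binds, had 491, 309.6, 623, 378, 337 and 199.9 CPM in endothelial-like cells of hashtags 1 to 6, against 13.7, 6.39, 5.04, 8.96, 5.67 and 15.2 CPM in other cells. It was detected in 70 of 111 cells, and its values did not overlap between the 2 sets of cells. Fabp5 had 1162, 881, 763, 311, 1060.3 and 722 CPM in endothelial-like cells, against 107, 124, 90.4, 113, 37.0 and 32.4 CPM in other cells; hashtag 4 was lowest among the endothelial-like values. Scarb1, a receptor for high density lipoprotein, was at 216 CPM in endothelial-like cells and 4.72 CPM in other cells. Angptl4, a secreted inhibitor of LPL, was at 175 and 5.50 CPM. Apoe, the apolipoprotein, was at 1561 and 105 CPM.
Not all fatty acid handling genes were higher. The transporter genes Slc27a1 and Slc27a4 had only 1 and 5 UMIs in the endothelial-like cells and Mfsd2a had 0, and no change is read from these counts. The acyl-CoA synthetase gene Acsl5 was at 42.7 CPM in endothelial-like cells and 36.9 CPM in other cells, with a log2 ratio interval of -0.34 to 0.70. Acsl1, another of these enzymes, was higher, at 31.0 and 9.34 CPM.

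Of 14 genes of lipid storage and hydrolysis 13 were measured, 7 were higher and none was lower (median log2 ratio 1.72). However, 5 of the 13 were measured only through these cells, and of the 8 at 10 CPM or more in other cells 2 were higher. Over all genes at that level, 718 of 7608 were higher. With a leading hashtag of at least 90% the median was 0.84. Mgll, the lipase of the last step of triglyceride breakdown, was the highest of them. It had 2064, 1842, 1505, 1411, 1382 and 1577 CPM in endothelial-like cells of hashtags 1 to 6 and 6.12, 7.39, 7.92, 5.98, 5.11 and 5.89 CPM in other cells. Its log2 ratio was 8.08 (95% interval 7.90 to 8.27), and its ratio over all 497 cells ranked 16 among genes at 50 CPM or more. The lipases of the preceding steps were lower in level: Pnpla2 was at 175 CPM in endothelial-like cells and 35.3 CPM in other cells, and Lipe at 85.3 and 5.12 CPM. Plin2, a coat protein of lipid droplets, was at 226 and 62.1 CPM. Dgat1, an enzyme of triglyceride synthesis, did not pass, with 36.2 and 32.1 CPM. Aqp7, a glycerol channel chosen by the ranking over all genes, was at 208 CPM in endothelial-like cells and 0.588 CPM in other cells.
Of 12 lipid regulators 10 were measured and 5 were higher, but 5 of the 10 were measured only through these cells, and of the other 5 genes 1 was higher. Over all genes at 10 CPM or more in other cells, 718 of 7608 were higher. Pparg, the nuclear receptor that drives Fabp4, Cd36 and Lpl in fat, had 245, 144, 84.0, 144, 153 and 133 CPM in endothelial-like cells of hashtags 1 to 6, against 29.2, 36.9, 19.4, 36.4, 2.59 and 1.99 CPM in other cells. The endothelial-like values were above those of the other cells in each hashtag. Nr1h3 and Rxra, a sterol receptor and the shared partner of both receptors, were higher as well, and Ppara and Ppargc1a had 0 UMIs in the endothelial-like cells.
Of 16 genes of fatty acid oxidation, all measured, 3 were higher (Cpt2, Acadm and Etfdh) and none was lower, with a median log2 ratio of 0.64 beside the 0.28 of all genes. The share of higher genes was below the 23.5% of all measured genes, which include 1977 measured only through these cells. Of the 15 oxidation genes at 10 CPM or more in other cells, 2 were higher. Over all genes at that level, 718 of 7608 were higher. Cpt2 had 9 UMIs in endothelial-like cells, its log2 ratio interval was -0.086 to 2.01, and with a leading hashtag of at least 90% its ratio turned to -0.54. Acadm, the medium-chain dehydrogenase, was at 63.4 CPM in endothelial-like cells and 30.3 CPM in other cells. Cpt1a, which admits fatty acids to mitochondria, was at 36.2 and 22.2 CPM and did not pass.

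**Figure D3:**
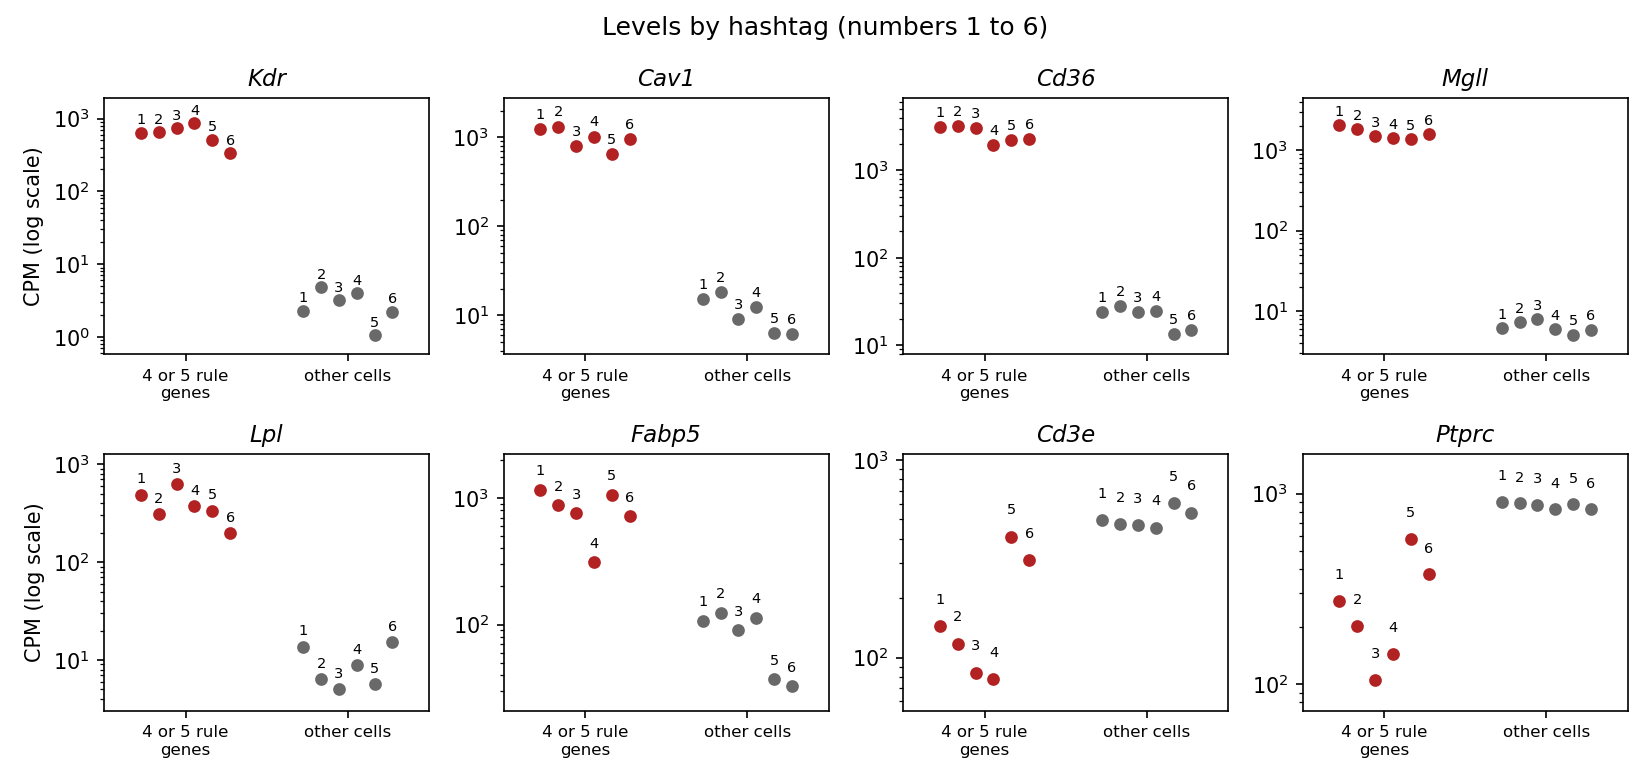
CPM of 8 genes (log axes) in endothelial-like cells with 4 or 5 rule genes (red, left) and in cells outside the rule (grey, right); each point is the summed cells of 1 hashtag, numbered 1 to 6. Kdr, Cav1, Cd36, Mgll, Lpl and Fabp5 lie above the other cells in every hashtag, and Cd3e and Ptprc lie below them, with hashtags 5 and 6 nearest to the other cells.

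Adipocyte transcripts moved with these lipid genes. Of 8 adipocyte genes 7 were measured and higher, all 7 measured only through the endothelial-like cells, and Lep stayed below 10 CPM in both. The list summed to 1362 CPM in endothelial-like cells, 97.7 CPM in cells with 2 or 3 rule genes and 14.3 CPM in other cells. By hashtag it was between 577 CPM (hashtag 6) and 2267 CPM (hashtag 3) in endothelial-like cells, against 9.00 to 17.8 CPM in other cells. Car3 and Cfd, abundant transcripts of fat cells, were at 626 and 423 CPM in endothelial-like cells, against 6.51 and 4.09 CPM in other cells, and Adipoq, which encodes adiponectin, had a UMI in 25 of 111 cells. In macrophage-marker cells of the same library (at least 2 of C1qa, C1qb and C1qc) Adipoq had a UMI in 0 of 205 cells, Car3 in 8 (20.1 CPM) and Cfd in 6 (11.3 CPM).
The 32 endothelial-like cells without a UMI of the adipocyte list, of median depth 5875 UMIs, still held Cd36 at 1260 CPM (30 of 32 cells) and Mgll at 828 CPM (29 of 32 cells). The 79 cells with such a UMI, of median depth 5191 UMIs, held 3368 and 2017 CPM. Lpl was at 100.2 CPM in the 32 cells and 526 CPM in the 79 cells. Pparg was at 122 and 164 CPM in the same order, and Kdr at 414 and 723 CPM. The part of adipocyte RNA in the levels of the lipid genes was not tested further.
Of 8 pericyte and smooth muscle genes 6 were higher, again through these cells alone. Rgs5, a marker of pericytes, had 700.0, 352, 749, 55.6, 129 and 77.7 CPM in endothelial-like cells of hashtags 1 to 6, and was at 3.59 CPM in other cells; 41.3% of its UMIs were in 3 cells. Acta2 and Tagln were the genes of this list that did not pass. The pericyte list summed to between 200.0 and 1281 CPM by hashtag in endothelial-like cells, against 16.2 to 50.5 CPM in other cells. Fibroblast, mesothelial, macrophage, erythroid and platelet lists had 0 higher genes in endothelial-like cells, with 4 of 8, 1 of 7, 7 of 8, 4 of 6 and 1 of 5 genes measured. The macrophage list summed to 339 CPM in endothelial-like cells and 192 CPM in other cells, with a median log2 ratio of 1.01. In the cells with 2 or 3 rule genes, fibroblast genes summed to 1072 CPM and erythroid genes to 4374 CPM, against 268 and 1456 CPM in other cells. These sums rested on a few hashtags: erythroid genes were above the other cells in hashtags 2 and 5 and below them in hashtags 1, 3, 4 and 6, and fibroblast genes were above them in hashtags 3, 4 and 5 and below them in hashtags 1, 2 and 6. In hashtag 3, 1 of the cells with 3 rule genes held 100497 UMIs and weighs heavily in the sums. Of the B cell list Ebf1, which endothelium and fat also express, was the 1 gene higher. The part of these cell types in the result was not tested.

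Several lymphatic genes came from 3 cells. Ccl21a, the chemokine that draws T cells and dendritic cells into lymphatics, had a log2 ratio of 10.55 in endothelial-like cells, and the largest ratio over all 497 cells among genes at 50 CPM or more (8.88). It belongs to a group of near-identical copies, so its counts are uncertain. All 891 of its UMIs, all 269 of Mmrn1, all 37 of the lymphatic master factor Prox1 and all 49 of Reln were in 3 endothelial-like cells, 1 each of hashtags 2, 3 and 4. The cell of hashtag 3 had 38181 UMIs, of which 778 were Ccl21a, 189 Mmrn1 and 21 Prox1. The cell of hashtag 4 had 34507 UMIs, with 20, 62 and 14 of these genes. The cell of hashtag 2 had 6527 UMIs, with 93, 18 and 2. Cd36 had 3, 1 and 5 UMIs in these cells of hashtags 3, 4 and 2, against 2121 UMIs over all 111 cells. In the 108 endothelial-like cells without them these genes, Ccl21a, Mmrn1, Prox1 and Reln, were at 0 UMIs. Flt4, the receptor of VEGF-C, had 59 of its 76 UMIs in the 3 cells and was at 24.5 CPM in the 108. Lyve1, a hyaluronan receptor, had 22 of its 32 UMIs there and was at 14.4 CPM in the 108. Plvap, a protein of fenestrated vessels, also had 80.4% of its UMIs in 3 cells.

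Clock genes were read because the study deletes Bmal1 in Tregs. Arntl had 10 UMIs in the endothelial-like cells, 2, 4, 1, 2, 1 and 0 in hashtags 1 to 6, or 12.9 CPM against 17.3 CPM in other cells. The log2 ratio of -0.35 had an interval of -1.48 to 0.47, so at this depth no difference was detectable, and no hashtag can be read alone. Of 18 clock genes 15 were measured, 8 were higher and none was lower, with a median log2 ratio of 1.12, and of the 10 at 10 CPM or more in other cells 4 were higher. Over all genes, 23.5% of those measured were higher, and 718 of the 7608 at 10 CPM or more in other cells. Nr1d1, the repressor REV-ERBα that BMAL1 drives, had 43.3, 42.7, 133, 111, 32.1 and 66.6 CPM in endothelial-like cells of hashtags 1 to 6, from 6, 8, 19, 10, 4 and 6 UMIs, against 6.93, 1.80, 7.56, 3.98, 3.08 and 3.07 CPM in other cells. Dbp, another output of the clock, had 50.5, 32.0, 196, 144, 64.3 and 66.6 CPM in endothelial-like cells and 18.1, 17.4, 25.7, 23.2, 20.7 and 25.6 CPM in other cells. Both genes were highest in hashtags 3 and 4 of the endothelial-like cells, on counts of 10 to 28 UMIs. Each of these hashtags holds 1 deep cell with lymphatic genes, of 38181 and 34507 UMIs, against median depths of 7802 and 4195. Such a cell weighs heavily in the CPM of its hashtag, and its part in these values was not tested. Per3, a period gene, was at 32.3 CPM in endothelial-like cells and 4.47 CPM in other cells, and Clock, the partner of Arntl, at 46.6 and 21.8 CPM. Per1 and Cry1 did not pass. Whether hashtags differ by time was not tested, since their times are not known here.

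T cell genes were lower in the endothelial-like cells but not absent. Of 20 T cell genes, all measured, 19 were lower and none was higher, with a median log2 ratio of -1.50, beside the 6.12% of all genes that were lower. The exception, Trbc1, was at 379 CPM in endothelial-like cells and 893 CPM in other cells, but at 1245 and 1078 CPM in hashtag 5. Cd3e, a chain of the T cell receptor complex, had 144, 117, 84.0, 77.8, 409.7 and 311 CPM in endothelial-like cells of hashtags 1 to 6, against 495, 474, 466, 453, 603 and 541 CPM in other cells. Each endothelial-like value was below each value of the other cells, and hashtags 5 and 6 were the highest. Cd4, the coreceptor used for the sort, was at 59.5 CPM in endothelial-like cells and 169 CPM in other cells. Ptprc (CD45), carried by all leukocytes, had 274, 203, 105, 144, 578 and 378 CPM in endothelial-like cells, against 905, 889.7, 875, 829, 881 and 828 CPM in other cells. Of the 10 Treg genes Ctla4, Tnfrsf18, Il1rl1 and Areg were lower, and Foxp3 had 3 UMIs in the 111 cells. All 10 were at 10 CPM or more in other cells, where 587 of 7608 genes were lower.
The cells with 2 or 3 rule genes stayed closer to the other cells: the T cell list summed to 3434 CPM in endothelial-like cells, 8507 CPM in cells with 2 or 3 rule genes and 9686 CPM in other cells.

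At least 2 of Cd3d, Cd3e, Cd3g and Trac were detected in 72 of 111 endothelial-like cells (64.9%), in 357 of 386 cells with 2 or 3 rule genes (92.5%) and in 94.6% of other cells. After thinning to 1500 UMIs the shares were 33.9% of 109 endothelial-like cells (25.1 to 43.6), 82.1% of 358 cells with 2 or 3 rule genes (77.8 to 86.0) and 86.0% of 12580 other cells (85.3 to 86.6), with 2, 28 and 1305 shallower cells left out. In cells with markers of other leukocytes the share was 75.7% of 189 macrophage-marker cells, of median depth 3357 UMIs before thinning. It was 53.4% (39.9 to 66.7) of 58 cells with at least 2 of the B cell genes Cd79a, Cd79b and Ms4a1, of median depth 6501 UMIs before thinning. These sets are not free of T cell transcripts: the T cell list summed to 7870.1 CPM in the macrophage-marker cells and 3733 CPM in the B cell set. The share in endothelial-like cells lay below both, with an interval that overlaps that of the B cell set. Whether endothelial-like cells express these genes was not tested.

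**Figure D4:**
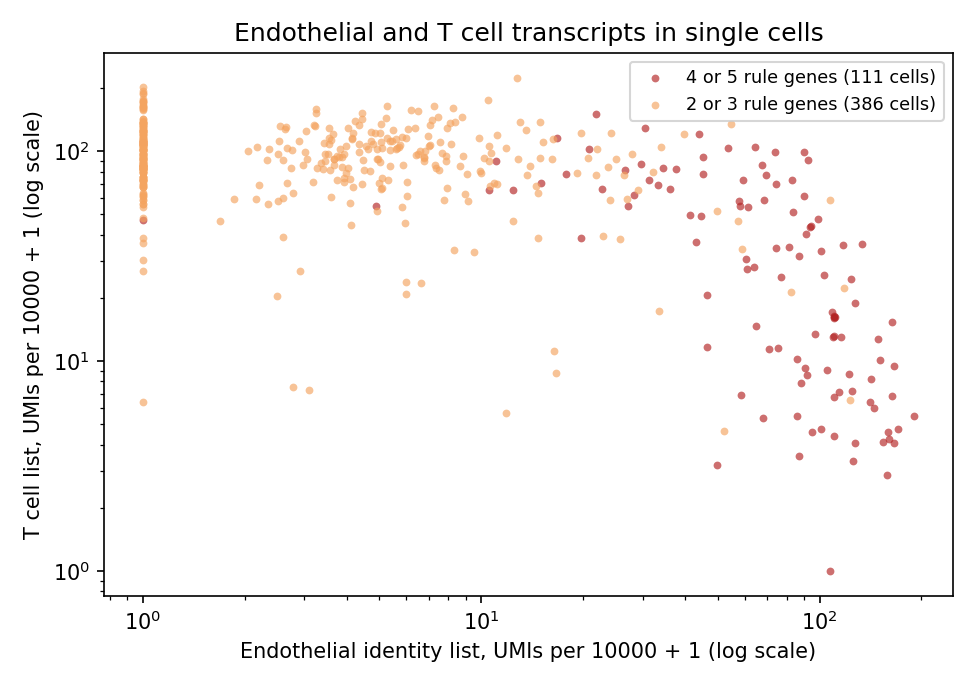
UMIs of the 28 endothelial identity genes (x) against UMIs of the 20 T cell genes (y), each per 10000 UMIs of the cell plus 1 on log axes; each point is 1 of the 497 cells, red with 4 or 5 rule genes and orange with 2 or 3. Orange cells fill the upper left, while red cells run from cells with many T cell transcripts at the top to cells with few at the lower right.

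The 111 cells ran from 19 with none of the 4 T cell genes to 41 with all 4. The split went with the hashtag. At least 2 of the genes were found in 14 of 14 endothelial-like cells of hashtag 6 and in 21 of 23 of hashtag 5. The counts were 14 of 21 in hashtag 1, 8 of 14 in hashtag 3, 6 of 11 in hashtag 4 and 9 of 28 in hashtag 2. Endothelial-like cells of hashtags 5 and 6 also had fewer identity genes at the median (13 and 14) than those of hashtags 1 to 4 (16 to 19.5). In the cells outside the rule at least 2 of the genes were found in 98.1% and 97.7% of hashtags 5 and 6 and in at most 92.7% of each of hashtags 1 to 4. The depth of the endothelial-like cells did not follow the same order, with medians of 4799 and 6084.5 UMIs in hashtags 5 and 6 and 4195 to 7802 UMIs in the others.

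**Figure D5:**
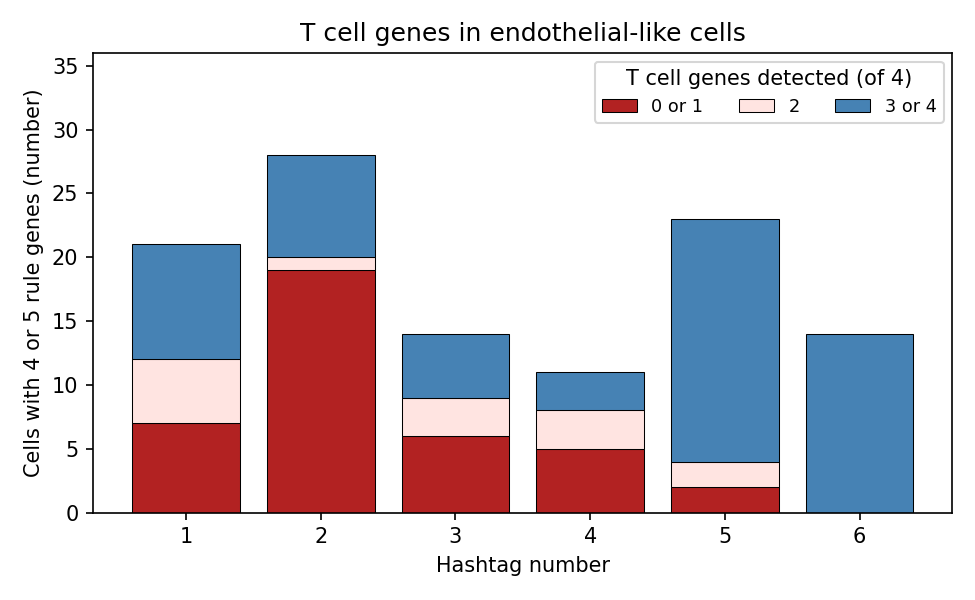
Number of endothelial-like cells (4 or 5 rule genes) in each hashtag, divided by how many of Cd3d, Cd3e, Cd3g and Trac were detected in the cell. No cell of hashtag 6 and 2 cells of hashtag 5 have 0 or 1 of these genes, against 19 of 28 in hashtag 2.

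The 72 endothelial-like cells with 2 to 4 of the T cell genes had a median of 6180 UMIs, and the 39 cells with 0 or 1 had 3889. Median hashtag counts were 138.5 and 75 in the same order. Endothelial transcripts were present in both sets. In the 72 and the 39 cells, in that order, Cd36 was at 18.0 and 21.1 UMIs per cell, Kdr at 4.97 and 3.33, Mgll at 11.7 and 11.4, and the median number of identity genes was 17 and 18. Aqp1 was at 9.28 and 13.5 UMIs per cell, Timp4 at 5.60 and 7.92, and Car4 at 1.82 and 2.41. Ptprc, which did not choose the split, was at 2.71 UMIs per cell in the 72 cells, 0.385 in the 39 cells and 2.98 in the other cells of the library. Whether pairs of cells with the same hashtag make up the 72 cells was not tested. Adipocyte transcripts summed to 1200.3 CPM in the 72 cells and 1806 CPM in the 39, and this sum was not taken per cell. CPM also depends on the depth of the cells, so it is not comparable with the values per cell above. In CPM and in the same order, Cd36 was at 2286 and 4000, Kdr at 631 and 631, and Ptprc at 344 and 72.8.
The genes lowest in the cells of the rule, ranked over all genes, included the chemokine Ccl5, at 582 CPM in endothelial-like cells and 1863 CPM in other cells, which passed no call: hashtag 5 went the other way, at 2321 CPM in endothelial-like cells and 1883 CPM in other cells, and 138 of the 450 UMIs were in 1 cell. Another was the activation marker Cd69, at 77.6 and 232 CPM. MHC class I genes, which most nucleated cells express, had 0 of 8 members past 2-fold (median log2 ratio -0.37). All 8 were at 10 CPM or more in other cells, where 718 of 7608 genes were higher and 587 lower. Of 9 measured proliferation genes 5 were lower in endothelial-like cells, beside the 6.12% of all genes, but this did not hold when cells with 3 rule genes were added (median log2 ratio 0.95) or over all 497 cells (0.51, with 10 of 10 genes above 0). Among the added cells 1 held 100497 UMIs, and its part in this was not tested. Markers of B cells were uneven: Ighm reached its level through 3 cells, which held 94.2% of its UMIs.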

How the data were processed

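The deposited expression file holds raw counts of UMIs per gene and barcode from a 10x Genomics single cell 3′ v3.1 library, per the labels' protocols. Cell Ranger 6.0, Seurat 3 and mm10 stand in the submitters' processing notes, but cellranger 4.0.0 in the file header, a conflict that the values do not settle. The authors deposited hashtag counts for 149999 barcodes, of which 22952 matched 1 of the 22960 expression barcodes. Cells needed 500 genes, under 10% mitochondrial UMIs, at least 10 hashtag counts and 80% of them from 1 of 6 hashtags. Hashtags 7 to 10 held 278, 10, 172 and 7 counts and were not used. The members and gene lists were chosen with earlier results of these data known.

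UMIs were summed per set of cells and hashtag (pandas 2.3.3 and numpy 2.4.6 in Python 3.11.15, with scipy 1.17.1 for intervals), scaled to CPM, and compared as log2 ratios with a prior count of 0.5. Intervals are exact at 95% (Poisson, conditional binomial or Clopper-Pearson) and cover counting error only. The calculation was tested on simulated data. Shares were also taken after thinning to 1500 UMIs. From each list the text names up to 4 measured members with the largest ratio over the 497 cells and 1 sign in every hashtag, and any member of the rule, clock, T cell and lipid lists. It also names genes among the 20 highest and 10 lowest ratios over all genes at 50 CPM or more. Genes named for being at or near 0, for resting on 3 cells, as exceptions or as the Treg, stress and lymphatic members with a call were chosen after their values were seen, as was the B cell set of 3 genes. For symbols with more than 1 gene ID, the ID with most UMIs was used. Some results for single genes of the lists, lower calls among lipid genes included, are not reported here.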

Additional observations from a re-analysis of the deposited data

Results flagged for a closer look

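A larger share of the barcodes left out for lacking a single hashtag met the marker rule. Of 6854 barcodes that passed the gene and mitochondrial filters without a single hashtag, 497 met the marker rule, 7.25% (6.65 to 7.89), against 3.46% (3.16 to 3.77) of the 14382 kept cells. That both sets number 497 is a coincidence, since they share no barcode. At least 4 rule genes were found in 189 of them (2.76%, 2.38 to 3.17), against 111 kept cells (0.772%, 0.635 to 0.929). Of these 189, 52 (27.5%) had under 10 counts of their leading hashtag, against 3.22% of all 6854. At least 2 of the 4 T cell genes were present in 11 of these 52 barcodes (21.2%) and in 91 of the other 137, whose hashtags were mixed (66.4%). Cd36, which is not a rule gene, was at 3082 CPM in the 189 barcodes, against 2743 CPM in the 111 kept cells. Gpihbp1 was at 2444 and 2284 CPM, but it is a rule gene, so its level describes the choice and is no result. Median depth was 4988 UMIs in the 189 barcodes and 5556 in the 111 cells, but 5840.5 in all 6854 barcodes and 3148 in all 14382 kept cells. The cause was not tested.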

How the results depend on the processing

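No result of this report has a test, so a value counts as moved when it changed by more than its counting interval or its spread over hashtags, and a count when it changed by over 1.5 times. Single genes rarely changed direction: over all alternatives, 4281 of 4452 values for endothelial-like cells and 4962 of 5194 for all 497 cells kept their sign. The direction of the identity, lipid and T cell lists held in every alternative run.

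With at least 3 of them, the cells of the rule were 1.33% of kept cells, 74.3% had at least 2 T cell genes, 1729 genes were higher and 230 lower (229 when counted as a widening of the endothelial-like class), and list medians were 6.93 (6.99 in the widened class) for identity, 1.47 (1.46) for lipid storage and -1.05 for T cell genes. In that widened class the proliferation list turned to 0.95, with Mki67 at 1.09, Top2a at 0.65, Birc5 at 0.95, Cdk1 at 1.29 and Ccnb2 at 0.67, and Dcn turned to 1.15. The widened class takes in 1 cell of hashtag 3 with 100497 UMIs, against a median of 3689.5 in the cells with 3 rule genes. Its part in these values was not tested. With all 5, endothelial-like cells were 0.528%, 958 genes were lower and lipid storage was at 1.90.

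Without cells that carry at least 2 T cell genes, the cells of the rule were 0.473% with 2961 genes higher and 1093 lower and medians of 7.60 for identity, 1.49 for lipid storage and -2.47 for T cell genes. Endothelial-like cells were then 0.271%, with 1424 genes lower and medians of 7.88 for identity and -3.53 for T cell genes.

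With a leading hashtag of at least 90%, the shares were 2.98% for the rule and 0.501% for endothelial-like cells, 653 genes were higher in the cells of the rule, and in endothelial-like cells lipid storage was at 0.84 and Cpt2 turned to -0.54. With at least 50 hashtag counts lipid storage was at 1.44. With at least 1000 genes per cell the shares were 3.77% and 0.939%, and 89.5% of the cells of the rule had at least 2 T cell genes, as did 89.4% with under 5% mitochondrial UMIs. Thinned to 1000 UMIs, 55.5% of the cells of the rule had at least 2 T cell genes, against 74.5% at 1500 UMIs. Weighing each cell alike gave lipid uptake 1.25 and lipid storage 2.04 in endothelial-like cells. Without a minimum level, 9942 genes were higher and 27 lower in the cells of the rule and 13060 higher in endothelial-like cells, with lipid uptake at 0.77. These counts of higher genes include genes with 0 UMIs in the cells, such as Sele, to which the added 0.5 counts alone give a higher ratio. Their size is therefore not read as a result. Against T cells without rule genes the identity median was 7.91.

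Leaving out each of the 6 hashtags gave 11 to 29 lower genes (22, 18, 27 and 29 without hashtags 1, 3, 5 and 6) and lipid storage medians of 0.50 to 0.86 for the cells of the rule. Leaving out hashtags 1, 2 and 5 in turn gave 595 to 903 lower genes (903 without hashtag 5) and lipid storage medians of 1.56 to 1.84 for endothelial-like cells. Without the cells with lymphatic genes, Ccl21a turned to -0.29 and Mmrn1 to -0.81 over all 497 cells, and Ccl21a to -0.089 and Pdpn to -0.25 in endothelial-like cells. The cells with lymphatic genes were chosen by Prox1, Mmrn1 and Ccl21a, so the fall of Ccl21a and Mmrn1 follows from that choice. In endothelial-like cells Ccl21a was then at 0 UMIs, and the added 0.5 counts alone set the sign of its ratio. The causes of the other changes were not tested.

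Depth limits single hashtags most: 111 cells in 6 hashtags leave genes such as Arntl with 0 to 4 UMIs each. The part of free RNA and of undetected pairs of cells was not tested for any level. In hashtags 3 and 4 the endothelial-like levels also lean on 1 deep cell each, of 38181 and 34507 UMIs. That limit covers all values by hashtag, the low Sema3g and Fabp5 of hashtag 4 included. Thinned cells see fewer genes, so shares at 1500 UMIs compare sets of cells and do not count expressing cells.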
